A study of Mus musculus with 2 samples.

Results

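The mouse mammary stroma holds a class of fibroblasts marked by Gdf10, Fmo2 and F3 that has been named after the adipogenesis-regulatory cells of fat tissue. Its members were chosen here cell by cell from raw counts of unique molecular identifiers (UMIs, each standing for 1 captured transcript). A member had at least 500 detected genes, at most 10% mitochondrial UMIs, at least 1 UMI of Pdgfra, the receptor that marks mammary fibroblasts, and at least 1 UMI each of at least 4 of 8 genes, which were Gdf10, Clec11a, Fmo2, F3, Meox2, Vit, Gria4 and Csmd1. By this rule 4832 of 39877 Pdgfra+ cells were members, out of 44506 cells that passed the same quality limits. The remaining 35045 Pdgfra+ cells are called others below.

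Both libraries came from female wildtype C57BL/6 mice that carried no transgene. The pubertal library was made from mice of 4 weeks and the adult library from virgin mice of 9 weeks, and each pooled 2 females. Stromal cells had been sorted as negative for CD24 and for the lineage markers CD45, CD31 and TER-119, which removes epithelial, immune, endothelial and red blood cells, and were profiled by droplet-based single-cell RNA sequencing (scRNA-seq). Each stage had 1 library, so no difference could be set against the spread between animals or libraries. Stage and library cannot be told apart, no test was possible, and every interval is a 95% interval for counting error only.

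Cells called adipogenesis-regulatory were first described in the stroma of fat depots, where they carry tissue factor on their surface and restrain the formation of adipocytes from neighbouring precursors. The mammary ducts grow through a fat pad, so mammary fibroblasts lie next to both epithelium and adipocytes. The genes of the rule have different roles. Gdf10 is a secreted ligand of the TGF-beta superfamily, Clec11a a secreted growth factor first known from bone marrow, and F3 is tissue factor, the membrane protein that starts coagulation. Fmo2 is a flavin monooxygenase, Meox2 a homeobox transcription factor and Vit a matrix protein. Gria4 is a subunit of AMPA-type glutamate receptors and Csmd1 a large membrane protein with complement control domains.

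The promoters of 3 genes that recur below are shown, because Gdf10 and Fmo2 give the class its name, and Hhip, a decoy receptor that binds Hedgehog ligands, is the marker outside the rule on which several comparisons below turn. The sequences are the 250 bases before the start of each gene in RefSeq on build GRCm38.p6, read 5′ to 3′ on the strand of the gene. They lie at chr14:33923337-33923586 on the plus strand, chr1:162898759-162899008 on the minus strand (the more upstream of 2 listed starts) and chr8:80058009-80058258 on the minus strand. Capitals mark the homeobox core TAATTA.
Gdf10: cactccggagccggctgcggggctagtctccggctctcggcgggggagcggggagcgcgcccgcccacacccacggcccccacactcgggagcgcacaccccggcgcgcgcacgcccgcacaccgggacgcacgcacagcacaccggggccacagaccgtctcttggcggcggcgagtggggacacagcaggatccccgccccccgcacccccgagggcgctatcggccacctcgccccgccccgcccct
Fmo2: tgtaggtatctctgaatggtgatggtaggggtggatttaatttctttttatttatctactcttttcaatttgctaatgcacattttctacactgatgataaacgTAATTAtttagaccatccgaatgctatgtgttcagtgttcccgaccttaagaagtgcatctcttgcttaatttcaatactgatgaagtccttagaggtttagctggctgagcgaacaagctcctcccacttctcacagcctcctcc
Hhip: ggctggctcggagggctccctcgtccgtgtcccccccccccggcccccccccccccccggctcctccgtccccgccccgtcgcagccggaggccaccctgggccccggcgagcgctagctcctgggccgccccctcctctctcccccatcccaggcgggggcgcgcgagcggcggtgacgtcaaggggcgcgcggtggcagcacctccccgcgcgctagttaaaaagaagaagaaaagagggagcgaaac
The Gdf10 promoter was 78.8% G and C with 35 CpG dinucleotides, and that of Hhip 76.0% with 28, against a median of 52.4% and 6 over all 32851 promoters of the table. The Fmo2 promoter was 39.6% G and C with 4 CpG dinucleotides. It held TAATTA, which 4.84% of all promoters of this length held. The motif GACCACCCA, the preferred site of the Hedgehog-controlled GLI factors, was searched on both strands. It was in none of these 3 promoters or those of Ptch1 and Gli2, and in 0.225% of all promoters. A match describes letters only. Promoters of Clec11a, F3, Meox2, Gria4 and C7 were also in the table. That of C7 held TAATTA too, and none of them held GACCACCCA. TATAAA (in 12.4% of all promoters) was in those of Meox2 and C7, and CCAAT (33.8%) in those of Clec11a and Gria4. None of the 3 promoters shown held either. Those of Vit and Csmd1 were not matched.

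In all, 255274670 UMIs were spread over 21688 barcodes at puberty, and 259549498 over 23183 in the adult. The median member had 11557 UMIs at puberty and 11661 in the adult, against 12265 and 11222.5 in others. Doublets, droplets that hold more than 1 cell, were marked but not removed. They made up 12.2% of members at puberty and 17.7% in the adult, against 8.69% and 8.75% of others. At the threshold set by the doublet caller itself the shares were 7.62% and 6.71% of members and 2.04% and 3.21% of others. Of all barcodes 145 were found in both libraries, and 38 members carried such a barcode. Levels are given as counts of UMIs per 1000000 UMIs summed over the cells (CPM). Among markers of other cell types in members, 6 epithelial markers came to 0.202 CPM at puberty and 0.268 CPM in the adult with 4 and 3 of them at 0, 6 immune markers to 3.34 and 2.18 CPM, and 6 adipocyte markers to 0.674 and 0.971 CPM. Endothelial markers came to 28.4 and 13.6 CPM, led by Pecam1, mural markers (pericytes and smooth muscle) to 77.0 and 45.5 CPM, led by Myh11, and Schwann cell markers to 26.2 and 39.5 CPM, led by Mbp. The defining fibroblast collagens and Dcn were detected throughout, with at least 3 of 6 fibroblast markers in all 2403 pubertal and all 2429 adult members.

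The number of rule genes per Pdgfra+ cell did not fall off smoothly. At puberty 7942 cells had none of the 8 genes and 5542 had 1, the count dropped to 526 cells with 4, and then rose to 642 cells with 6. In the adult 6784 cells had none, 6882 had 1 and 3613 had 2, and the counts stayed between 504 and 611 from 4 to 7 genes. All 8 genes were found in 115 pubertal and 163 adult cells. The pubertal cells thus formed a second hump above the limit, and the adult cells a flat shelf.

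**Figure D1:**
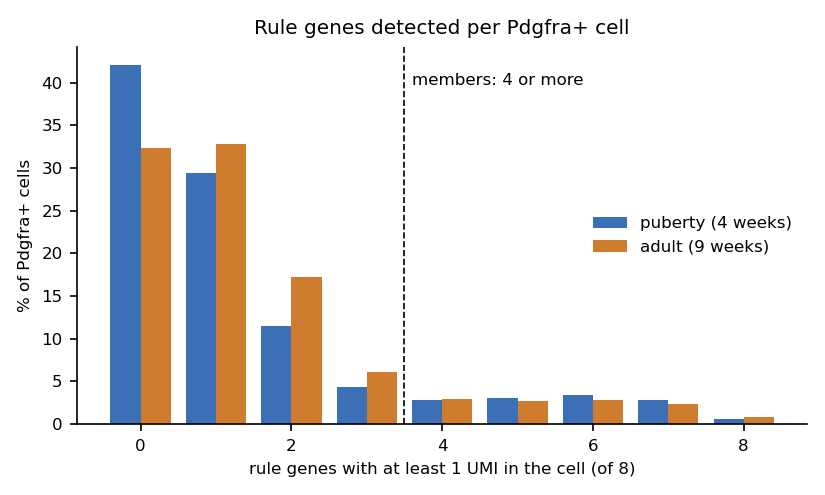
Bars give the percentage of Pdgfra+ cells (vertical axis) by the number of the 8 rule genes with at least 1 UMI (horizontal axis), in blue for the pubertal and in orange for the adult library, with a dashed line that separates members, with 4 or more genes. At puberty the bars rise again from 526 cells at 4 genes to 642 cells at 6 genes.

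Cells just inside and just outside the limit are described here by 3 genes outside the rule. At puberty the 819 cells with 3 rule genes held 6.15 CPM of Hhip and the 526 cells with 4 held 24.7 CPM. Pi16, a surface-associated marker of progenitor fibroblasts, stood at 555 and 272 CPM in the same cells. In the adult, C7, a component of the terminal complement pathway, was at 20.8 CPM in the 1291 cells with 3 genes and at 87.9 CPM in the 611 cells with 4. The adult cells with 4 genes also had the highest share of predicted doublets among cells with 2 to 5 genes, at 29.3%.

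To describe each marker in cells that it had not helped to choose, cells were taken on at least 4 of the other 7 genes. Gdf10 was then detected in 84.4% of chosen cells (82.8 to 86.0) at puberty and in 83.0% (81.2 to 84.6) in the adult, against 16.9% and 23.1% of the other Pdgfra+ cells. Its level was 369 CPM against 25.9 CPM at puberty and 414 CPM against 40.9 CPM in the adult. Fmo2 reached 884 CPM against 33.8 CPM at puberty and 807 CPM against 48.9 CPM in the adult. The chosen cells were thus the higher side for both genes in each library, and the same held for the 6 remaining genes. The lowest detection among the 8 was that of Csmd1, in 29.5% of chosen pubertal cells against 5.91%, and in 36.8% of chosen adult cells against 3.51%. In 699 pubertal and 380 adult mural cells, which should lack these genes, Gdf10 was detected in 1.14% and 1.58%, at median depths of 6369 and 6355 UMIs. Meox2 was the exception, with 30.6% and 35.8% of mural cells.

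**Figure D2:**
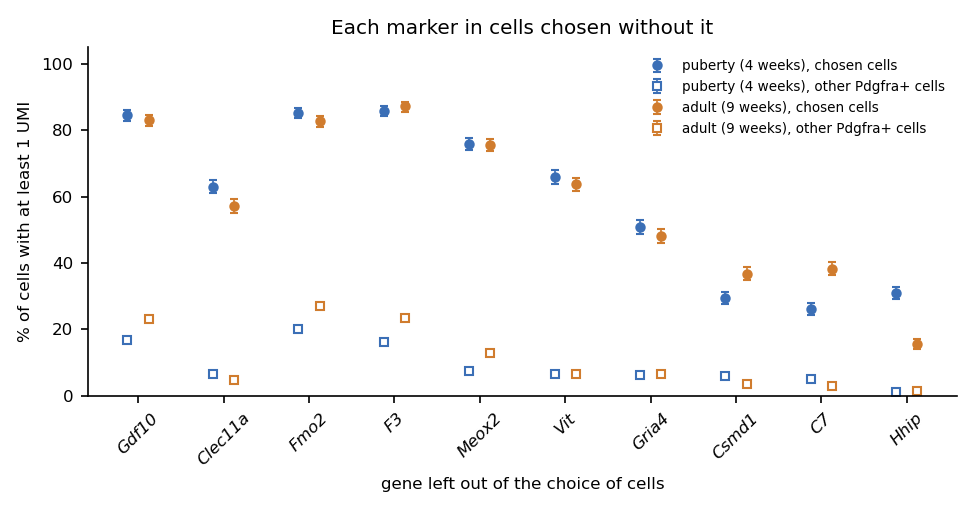
Symbols give the percentage of cells with at least 1 UMI (vertical axis) of each gene (horizontal axis), filled circles for cells chosen on the other rule genes and open squares for the other Pdgfra+ cells, in blue for puberty and orange for the adult, with exact 95% intervals, the filled circles of C7 and Hhip, which were not in the rule, being the members. Gdf10 lies at 84.4% and 83.0% in chosen cells, and Hhip at 30.9% and 15.6% in members.

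C7 and Hhip are listed with the class but were not in the rule. C7 was at 85.8 CPM (82.5 to 89.2) in pubertal members and 9.70 CPM in others, and at 179 CPM (174 to 184) in adult members and 6.95 CPM in others. Hhip was at 95.4 CPM (91.89 to 98.95) in pubertal members and 1.70 CPM in others, and at 42.4 CPM (40.1 to 44.8) in adult members and 2.55 CPM in others. Members held 88.9% of all Hhip UMIs of the pubertal Pdgfra+ cells and 69.5% of the adult ones, although they were 12.7% and 11.6% of the cells. After thinning each cell to 3000 UMIs, Hhip was detected in 0.191% of pubertal cells with no rule gene and in 34.2% of those with 6 or more. Over the same steps C7 went from 1.38% to 18.6% of pubertal cells and from 1.01% to 31.6% of adult cells. Pi16 went the other way, from 79.6% to 13.4% of pubertal and from 46.6% to 10.0% of adult cells. Over all members these markers did not go against the label. C7 and Hhip are listed with the class, so this is a description and no independent evidence. Some subclusters described below departed from it. Pi16 was at 744 and 947 CPM (puberty and adult) in subcluster 1, and C7 at 6.14 and 34.9 CPM in subcluster 5. The small subcluster described last did not carry the markers that name the class.

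Members made up 12.7% (12.3 to 13.2) of Pdgfra+ cells at puberty, 2403 of 18878, and 11.6% (11.14 to 12.01) in the adult, 2429 of 20999. The ratio of adult to pubertal shares was 0.909 (0.859 to 0.962). This direction depended on the number of genes required. With at least 3 of the 8 genes the shares were 17.1% and 17.7%, a ratio of 1.04, and with at least 5 they were 9.94% and 8.66%, a ratio of 0.871. Without predicted doublets the shares were 12.3% and 10.6%. Thinned to 3000 UMIs, they were 7.77% and 6.42%. Which library held the larger share thus depended on the rule.

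Which genes accompany the rule genes was described by summing UMIs over members and over others in each library. Of 3426 genes with at least 50 CPM in members or others of both libraries, rule genes left out, 100 were at least 2-fold higher in members in both libraries (2.92%) and 89 at least 2-fold lower (2.6%). The members had been chosen on these same cells, so these counts are a description of the class and carry no test. Others were a mixture whose makeup differed between the libraries. Pi16, for example, was detected in 85.1% of pubertal but 55.6% of adult others, and a ratio to others moves with that mixture too.

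Beyond C7, the 15 genes with the highest ratios in both libraries included Tspan11, Cdh13 and Nxph1. Tspan11, a tetraspanin, was at 133 CPM in pubertal members and 7.23 CPM in others, and at 112 and 15.7 CPM in the adult. Cdh13, a cadherin anchored in the membrane by a lipid, was at 147 and 17.7 CPM at puberty and at 96.0 and 13.7 CPM in the adult. Nxph1, a secreted protein best known from neurons, was at 65.8 and 10.3 CPM at puberty and at 122 and 7.76 CPM in the adult. Each was therefore several-fold higher in members of both libraries, with Tspan11 closer to others in the adult and Nxph1 further from them. Averaged over the libraries, the log2 ratio of Nxph1 was 3.33, and 2.34 in cells thinned to 3000 UMIs. Here and below the rule was applied again to the thinned counts, so members and others were then not the same cells. A change after thinning can come from depth or from the cells, and which was not tested. Mgp, a matrix protein that inhibits calcification and binds BMPs, was at 1708 CPM in pubertal members against 102 CPM and at 1553 CPM in adult members against 372 CPM. Its level in members was similar at both stages (adult over puberty 0.909), while in others it was 3.66-fold higher in the adult. Apoe, the apolipoprotein of lipid transport, was at 1487 and 238 CPM at puberty and at 1192 and 284 CPM in the adult, with an average log2 ratio of 2.35 that was 1.60 after thinning. The remaining genes of the 15 highest were Ndrg2, Vtn, Tmem176b, Gas6, C2, Klf5, Cxcl12, Ppl and Cpe, whose ratios lay between the 4.35 of Cpe and the 21.2 of Klf5. Thinning took the average log2 ratio of Vtn from 2.92 to 1.20 and that of Tmem176b from 2.65 to 1.77.

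**Figure D3:**
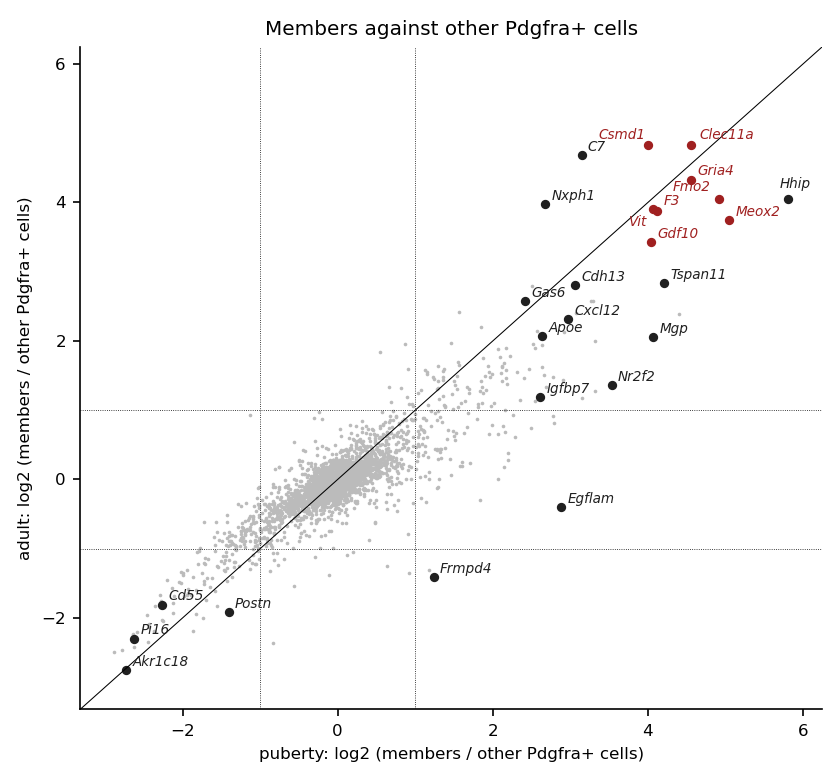
Each point is a gene with at least 50 CPM in members or others of both libraries, placed by its log2 ratio of members to other Pdgfra+ cells at puberty (horizontal axis) and in the adult (vertical axis), with rule genes in red, other named genes (drawn whatever their level) in black, dotted lines at 2-fold and the diagonal where both are equal. The rule genes, Hhip and C7 lie far to the upper right and Pi16 and Akr1c18 to the lower left, while Frmpd4 and Egflam were higher in members at puberty and lower in the adult.

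Hedgehog signalling starts when a ligand binds the receptor PTCH1 and frees the GLI factors, and Ptch1, Gli1 and Hhip are genes the pathway itself switches on. Of the 11 pathway genes tested at a lower minimum of 10 CPM, 5 were at least 2-fold higher in members of both libraries and none was lower, against 2.84% higher and 2.46% lower among all 8206 genes tested at that minimum. The median log2 ratio of the 11 genes was 1.48 at puberty and 0.86 in the adult, against -0.01 and -0.05 for all genes. Beside Hhip, Gli1, an activator of the pathway, was at 15.9 CPM in pubertal members and 0.734 CPM in others, and at 14.6 and 1.71 CPM in the adult. Gli1 was thus several-fold higher in members at both stages, and its level in members was close at both, unlike that of Hhip. Ptch1 was at 30.6 CPM in members of either library, against 8.06 CPM in pubertal and 13.2 CPM in adult others. Boc, a co-receptor, was 4.06-fold and 2.14-fold higher in members. Gli2 was 2.80-fold higher at puberty and 1.15-fold in the adult, short of the limit there. The shares of 2.84% and 2.46% also stand beside each count of list genes below that compares members with others. A single gene past 2-fold in a short list says little about the list.

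Among BMP and GDF ligands other than Gdf10, none of 6 tested was higher and 2 were lower in members. Bmp6 was at 2.93 CPM in pubertal members against 23.6 CPM in others and at 6.16 against 22.6 CPM in the adult. Bmp7 was at 4.18 against 33.8 CPM and at 3.75 against 20.2 CPM. Both ligands were thus several-fold lower in the class marked by Gdf10. Of 8 antagonists tested, 1 was higher and none lower. Nog, which encodes the antagonist noggin, was rare but concentrated in members, at 11.8 against 0.155 CPM at puberty and 6.997 against 0.184 CPM in the adult. Its adult level was under the minimum of 10 CPM, so it was not among the 8 tested. It was detected in 8.49% of pubertal members and 0.170% of others, and members held 91.6% (88.3 to 94.2) of its pubertal and 83.9% (78.8 to 88.3) of its adult UMIs. Chrdl1, a further antagonist, was 1.82-fold higher in pubertal and 3.90-fold in adult members. Of 11 BMP receptors and target genes, Id4 and Acvr2a were the 2 past 2-fold, Id4 at 38.0 against 6.60 CPM and at 31.3 against 5.55 CPM. The type I receptor gene Bmpr1b, at 16.7 CPM in members at puberty and 5.26 CPM in the adult, was 16.5-fold and 10.2-fold higher than in others but was under the minimum in the adult. Of 10 TGF-beta genes 1 was higher, Ltbp4, which stores latent TGF-beta in the matrix, and 1 was lower, the receptor gene Tgfbr1.

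Wnt genes were divided. Of 12 tested, 2 were higher and 3 lower in members. Dkk3, of the Dickkopf family, was at 96.5 against 15.3 CPM at puberty and 72.4 against 25.4 CPM in the adult. Rspo1, an R-spondin that amplifies Wnt signalling, was at 11.4 against 1.35 CPM and at 15.7 against 4.02 CPM. The ligand genes Wnt2 and Wnt10b and the R-spondin gene Rspo3 were lower in members, Wnt2 at 27.6 against 110 CPM and at 30.1 against 77.1 CPM. Of 8 genes of the insulin-like growth factor system, 2 binding proteins were higher. Igfbp3 was at 957 against 323 CPM at puberty and 546 against 102 CPM in the adult, and Igfbp7 at 2663 against 436 CPM and 2231 against 974 CPM. Igf1 itself was 1.70-fold and 1.55-fold higher, short of 2-fold. Of 13 other growth factors, 3 were higher, which were Ntf3, a neurotrophin, Angpt1, a ligand that stabilises vessels, and Fgf7, an epithelial mitogen. Ntf3 had the highest ratios of these, 5.31 and 3.84, and Pdgfc, a PDGF ligand, was the 1 lower gene.

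Complement genes formed a second group with many members past 2-fold. Of 13 tested, 6 were higher, among them C2, C4b, C7, Masp1 and Vtn, and 1 was lower (Cd55). Among all 8206 genes tested at 10 CPM, 2.84% were higher and 2.46% lower. The median log2 ratio was 0.86 at puberty and 1.25 in the adult. C2, a protease of the classical and lectin pathways, was at 328 against 38.9 CPM at puberty and at 274 against 51.8 CPM in the adult, and was detected in 90.0% and 83.2% of members. Vtn, vitronectin, which blocks the terminal pathway and anchors cells, was at 101 against 10.5 CPM and at 110 against 18.3 CPM. It was at 265 and 281 CPM in subcluster 4, described below, and at 39.2 and 55.7 CPM in the rest of the members. Genes of early activation, of a terminal component and of a soluble inhibitor were thus all among the higher ones, while the membrane inhibitor Cd55 was at 131 against 631 CPM and 113 against 394 CPM. C3, the central component, had 1662 CPM in members at puberty, 2433 CPM in the adult, and was only 1.18-fold and 1.70-fold higher than in others. C7 is a marker listed with the class, and several of these genes also belong to the study's own description of it. Of 24 genes of that description that were not in the rule, among them C2, C4b and Vtn, 21 were at least 2-fold higher and none was lower, but that list was chosen by the study on such cells and is not independent evidence. Of 13 coagulation genes other than F3, 2 were higher, Gas6, a vitamin K-dependent ligand of TAM receptors, at 296 against 55.3 CPM and 451 against 75.7 CPM, and the serpin Serpina3n.

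Of 18 chemokine and cytokine genes tested, 6 were higher (33.3%) and 1 lower (5.56%) in members. Among all 8206 genes tested these shares were 2.84% and 2.46%. Cxcl12, which retains leukocytes and haematopoietic cells in tissue, was at 517 against 65.8 CPM at puberty and 594 against 120 CPM in the adult. Ccl19, which attracts T cells and dendritic cells, was at 39.7 against 9.90 CPM and at 67.8 against 23.6 CPM. Il6 was at 361 against 162 CPM and at 224 against 76.4 CPM, and Kitl, the ligand of KIT, at 558 against 213 CPM and 619.8 against 298 CPM. The 4 genes were thus higher in members of each library, as were Cxcl14 and Cxcl16. Il34, a ligand of the macrophage receptor CSF1R, was lower at 3.10 against 12.3 CPM and 9.57 against 54.4 CPM. The median of the list, 0.31 and 0.48, was near 0 after thinning, at -0.06 averaged over the libraries. Of 11 interferon-response genes Ifit1 and Ifit3 were higher, and Ifit1 was at 472 against 192 CPM and 286 against 91.4 CPM. Outside subcluster 4, described below, Ifit1 was at 200 and 127 CPM in members, closer to others. The median log2 ratio of the interferon list, averaged over the libraries, went from 0.42 to 0.04 after thinning.

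By their medians matrix genes were not far from all genes. The log2 medians of 3 matrix lists lay between -0.17 and 0.18, against -0.01 and -0.05 for all genes. Of 22 interstitial collagens and their processing enzymes, none was higher and 1, Col12a1, was lower. These counts were near the shares over all 8206 genes, 2.84% higher and 2.46% lower. Of 16 basement membrane genes, 2 (12.5%) were higher and the laminin chain Lamb1 was lower. The higher ones were the collagen IV chains Col4a3 (56.1 against 5.39 CPM at puberty, 36.1 against 16.5 CPM in the adult) and Col4a4. Of 24 other matrix genes, 3 (12.5%) were higher (Mgp, Bgn and Fbln1) and 2 lower (Postn and Tnc). Bgn, the small proteoglycan biglycan, was at 1289 against 221 CPM and 873 against 398 CPM, and Postn, periostin, at 1095 against 2901 CPM and 1006 against 3779 CPM. Fmod, fibromodulin, was at 21.5 against 0.652 CPM in the pubertal but at 8.20 against 1.56 CPM in the adult library, under the minimum there.

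Genes better known from neurons accompanied Gria4 and Csmd1. Dlgap1, a scaffold of the postsynaptic density, was at 101 against 11.4 CPM and 100 against 44.4 CPM. Of 6 genes tested 3 were higher, among them Dlgap1 and the adhesion protein gene Lsamp, and none was lower. The median of the list was not stable. Averaged over the libraries it was 0.63 for these 6 genes, -0.28 with TMM scaling and 1.66 without predicted doublets. TMM scaling moves all ratios of a library by the same small amount, so the genes that passed the minimum were then not the same. Medians of other lists under other settings can differ in this way too. Gria1, another AMPA receptor subunit, was lower in members, at 1.01 against 9.44 CPM and 9.68 against 57.1 CPM.

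Enzymes and receptors showed single genes rather than groups. Of 14 detoxification genes other than Fmo2, Inmt, an indolethylamine methyltransferase, was at 391 against 68.1 CPM and 928 against 238 CPM, and the cytochrome gene Cyp1b1 was 5.29-fold and 2.75-fold higher. Aldh1a2, which makes retinoic acid, was at 6.40 against 0.0676 CPM at puberty and at 19.9 against 0.124 CPM in the adult, and members held 93.1% (88.8 to 96.2) and 95.7% (93.7 to 97.1) of its UMIs. The related Aldh1a3 was the reverse, at 18.8 against 138 CPM and 10.1 against 56.8 CPM. Of 16 receptors other than Pdgfra, Prlr, the prolactin receptor, was the only higher one, at 117 against 16.9 CPM and 41.3 against 8.16 CPM, and Pgr, the progesterone receptor, the only lower one, at 0.202 and 0.326 of its level in others. Of 19 transcription factors other than Meox2, Nr2f2, Osr1 and Nfib were higher and Osr2 was lower. Nr2f2, an orphan nuclear receptor, was at 234 against 20.2 CPM and 211 against 81.8 CPM.

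Of 15 commitment and lipid genes of adipocytes tested, 1 was higher, Apoe, and 1 was lower, Car3. Pparg, the master regulator of adipocyte formation, was at 17.8 against 34.2 CPM at puberty and 44.6 against 78.0 CPM in the adult, and Fabp4, a fatty acid carrier of differentiating adipocytes, at 73.3 against 126 CPM and 50.5 against 118 CPM. Cebpa was 1.85-fold and 1.39-fold higher. None of these 3 genes passed 2-fold in both libraries.

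The genes lowest in members were those of progenitor fibroblasts. Of 15 progenitor markers, 13 were at least 2-fold lower (86.7%, against 2.46% of all genes tested) and none was higher. Their median log2 ratio was -2.27 at puberty and -1.68 in the adult. Pi16 was at 197 against 1217 CPM and 171 against 843 CPM, and Dpp4, a surface peptidase, at 152 against 744 CPM and 166 against 530 CPM. Cd34, a sialomucin on progenitor and many other stromal cells, was lower by less than 2-fold, at 389 against 734 CPM and 499 against 649 CPM. In thinned pubertal cells it was detected in 83.8% of those with no rule gene and 55.8% of those with 6 or more. In the adult these shares were 71.9% and 63.1%. The 10 lowest genes overall were Akr1c18, Aldh1a3, Rorb, Limch1, Sema3e, Efhd1, Pi16, Pla1a, Anxa3 and Nav3, between 0.136 and 0.217 times their level in others. Part of these levels sat in members that were predicted doublets. Without the 3 subclusters of members described below that were more than 50% predicted doublets, the log2 ratio of Pi16 averaged over the libraries went from -2.46 to -4.12, that of Akr1c18 from -2.74 to -6.55, and the median of the 15 progenitor markers from -1.97 to -3.19.

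Between the stages, fewer genes passed 2-fold in members than in others. Of 3600 genes with at least 50 CPM in members of either library, 44 were at least 2-fold higher in adult members (1.22%) and 50 at least 2-fold lower (1.39%). Among others the counts were 185 higher (4.95%) and 93 lower (2.49%) of 3737 genes, and the makeup of others changed between the libraries. Of the 44 genes higher in adult members 32 were among the 185 higher in others, of the 50 lower ones 28 were among the 93, and none passed 2-fold in opposite directions. With TMM scaling, which moved the median log2 ratio of all tested genes from 0.07 to -0.04, the split in members was 33 higher and 61 lower, so that 35.1% rather than 46.8% of these genes were higher in the adult.

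Among genes with at least 50 CPM in members of either library, the largest adult-to-puberty ratios were those of Enpp2 and Hmcn1. Enpp2, autotaxin, which makes lysophosphatidic acid, was at 23.8 CPM (22.0 to 25.6) in pubertal and 143 CPM (138 to 147) in adult members. Hmcn1, hemicentin, a large matrix protein, was at 19.5 and 98.0 CPM. Both were also higher in adult others, by 7.68-fold and 6.02-fold. In members the ratio of Hmcn1 fell from a log2 of 2.33 to 0.97 without the doublet-rich subclusters. Mme, a surface peptidase, was at 28.3 and 119 CPM, and Slit2, a guidance ligand, at 71.3 and 259.8 CPM, with a log2 ratio of 1.87 that was 0.74 after thinning. The chemokine gene Cxcl14 was at 63.9 and 249 CPM in members and at 22.1 and 88.7 CPM in others, and thus several-fold higher in the adult in both. Scg3, Pde11a, Myoc, Sntg1 and the heat shock gene Hspa1b completed the 10 highest, with ratios from the 4.26 of Scg3 downwards.

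The lowest ratio was that of Rasgef1c, named for its exchange factor domain, which had 50.1 CPM in members at puberty and 2.88 CPM in the adult. The long noncoding RNAs B830012L14Rik (151 and 22.7 CPM) and C430049B03Rik (104 and 16.1 CPM) followed, with Nrk, a kinase gene, at 125 and 24.4 CPM. Cpz, a carboxypeptidase that binds Wnts, was at 140 and 30.8 CPM. Of 22 interstitial collagens and their processing enzymes tested, 3 were at least 2-fold lower in adult members, Col1a1 with 15204 CPM in pubertal and 5683 CPM in adult members, Col1a2 with 0.476 and Col3a1 with 0.485 of the pubertal level. In others the corresponding ratios were 0.511, 0.662 and 0.593, so these 3 genes were lower in the adult on both sides, and the list had a median log2 ratio of -0.25 in members. Prlr, at 117 and 41.3 CPM, and Igfbp3, at 957 and 546 CPM, were lower in adult members as well, Igfbp3 short of 2-fold. Akr1c18, Mfap4, Adamts9, Gpr39 and Ntrk3 completed the 10 lowest. Ntrk3, a neurotrophin receptor, was at 107 and 37.4 CPM in members and at 21.6 and 23.7 CPM in others, under the limit of 50 CPM there.

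For most rule genes the 2 libraries gave close levels in members. Gdf10 was at 344 CPM (337 to 351) at puberty and 380 CPM (373 to 387) in the adult, Fmo2 at 808 and 708 CPM, F3 at 510.5 and 584 CPM, Clec11a at 135 and 118 CPM, and Meox2 at 207 and 188 CPM, while Vit, Gria4 and Csmd1 had adult-to-puberty ratios of 1.10, 1.19 and 1.14. Since the rule chose cells on these genes, this is a description of the cells chosen. Hhip and C7 moved apart. Hhip was 0.445 times its pubertal level in adult members (0.416 to 0.475), and C7 2.08 times (1.99 to 2.18). In thinned cells Hhip was detected in 26.3% of pubertal and 12.5% of adult members, and C7 in 15.7% and 30.7%. The log2 ratio of Hhip ranged from -1.27 to -0.86 and that of C7 from 0.96 to 1.41 over all alternatives, with Hhip within 2-fold when cells were weighted equally and C7 within 2-fold with TMM scaling. In others Hhip was 1.499 times and C7 0.716 times the pubertal level.

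Among genes with at least 50 CPM both in members and in others of at least 1 library, the 5 whose stage ratio was highest in members relative to others and the 5 whose ratio was lowest were named, and the difference was not tested. Some kept their level in members while it changed in others. Egflam, a matrix protein also called pikachurin, was at 50.8 and 55.7 CPM in pubertal and adult members and at 6.89 and 73.2 CPM in others. Nr2f2 was at 234 and 211 CPM in members and at 20.2 and 81.8 CPM in others. Cacna1c, a calcium channel subunit, was at 96.1 and 106 CPM in members and at 42.5 and 263 CPM in others, and its small ratio in members changed sign after thinning, to a log2 of -0.56. Frmpd4, a scaffold protein, was 1.66-fold higher in adult members, at 49.3 and 81.7 CPM, against 20.9 and 218 CPM in others. At the other end Prg4, lubricin, was at 46.5 and 63.4 CPM in members and at 101 and 33.1 CPM in others, and Sfrp4, a secreted Wnt antagonist, at 259.97 and 292 CPM and at 321 and 157 CPM. Mfap4, a microfibril-associated protein, was at 132 and 37.2 CPM in members but at 69.6 and 94.6 CPM in others. Pcdh11x, Trpm3 and Heg1, with the higher ratio in members, completed these 10 genes.

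**Figure D4:**
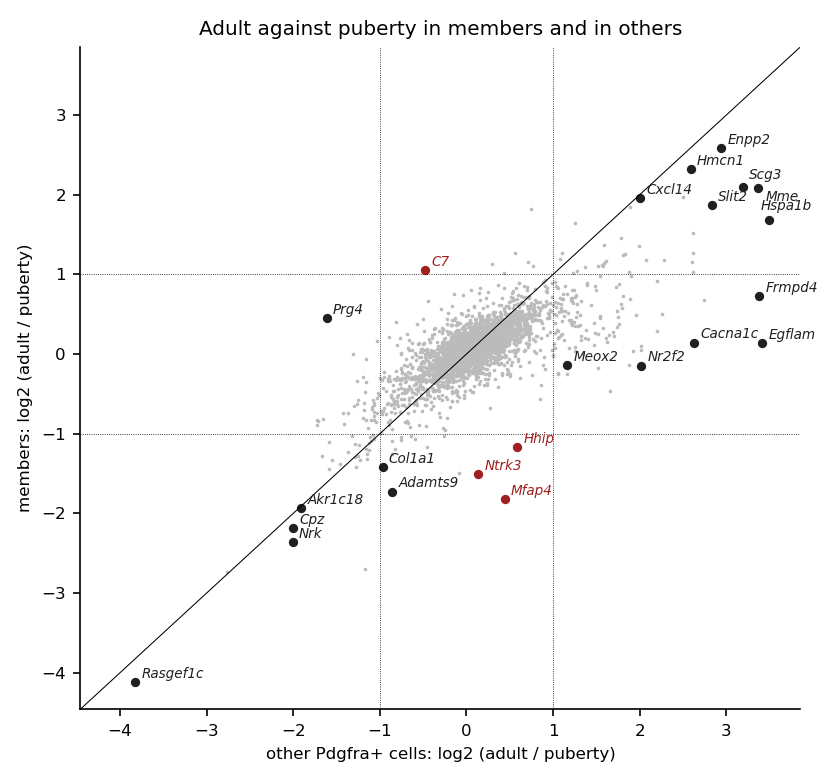
Each point is a gene with at least 50 CPM in members and in others of at least 1 library, or a named gene, placed by its log2 ratio of adult to puberty in other Pdgfra+ cells (horizontal axis) and in members (vertical axis), with dotted lines at 2-fold and the diagonal where both are equal. C7, Hhip, Mfap4 and Ntrk3 (red) lie on opposite sides of 0 on the 2 axes, with Ntrk3 near 0 in others. Egflam, Cacna1c and Nr2f2 lie near 0 in members but not in others.

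Lists by function were also described between the stages. In members the median log2 ratio was -0.03 for the IGF system, 0.05 for complement, 0.19 for the Hedgehog pathway and -0.14 for BMP receptors and targets, against 0.11 for all 8599 genes tested at 10 CPM, of which 1.48% were higher and 1.49% lower in the adult. For the Hedgehog pathway 1 of 11 genes was past 2-fold, Hhip, and the median of the same genes in others was 0.72. Of 19 chemokine and cytokine genes 3 were higher and 4 lower in adult members, with a median log2 ratio of 0.09. Of 15 detoxification genes 3 were higher, and of 8 synaptic and neuronal genes 2. Retinoid genes had 3 of 9 higher in adult members, but their median log2 ratio was 0.22 in members and larger in others, at 0.84. Aldh1a2 was at 6.40 and 19.9 CPM and Cyp26b1, which degrades retinoic acid, at 5.76 and 30.0 CPM. Of 15 markers of lobular-like fibroblasts, 14 were tested and 6 were higher in adult members and none lower, among them Thbs4, at 24.7 and 56.0 CPM, and Bmp5, at 5.96 and 24.4 CPM. Their median log2 ratio was 0.70 in members and 1.17 in others, and 0.37 in members without predicted doublets. Subcluster 2 described below, which was led by Thbs4 and Bmp5, was 6.16% of pubertal and 11.4% of adult members. Of 6 tested markers of Crabp1 fibroblasts 4 were higher, with a median of 1.93 that was 0.90 without the doublet-rich subclusters. In others the median of these markers was 3.37.

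Members were not uniform. They fell into 8 graph clusters, numbered here as subclusters, which are described by their genes and given no cell type name. The genes of a subcluster defined it, so their levels are descriptions. The division depended on the settings, with 7 clusters at a resolution of 0.2, 13 at 0.8 and 8 without predicted doublets, and adjusted Rand indices of 0.673, 0.403 and 0.526 against the subclusters described (1 would be the same division). Subcluster 3 was the largest, with 963 pubertal and 979 adult cells, 40.1% and 40.3% of the members of each library, and 2.27% predicted doublets. It had high Fmo2 (1400 CPM at puberty and 1438 CPM in the adult), F3 and Gria4, the vessel-destabilising ligand gene Angpt2, and low Pi16 (35.4 and 41.4 CPM). Aldh1a2 stood at 15.8 and 55.1 CPM there, against 1.81 and 4.44 CPM in the rest of the members.

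Subcluster 6, with 292 pubertal and 173 adult cells, had the highest summed levels of Fmo2, F3, Meox2 and Gria4, with Fmo2 at 1922 and 2483 CPM, Meox2 at 504 and 509 CPM and Gria4 at 606 and 784 CPM. Mgp was at 6807 and 6841 CPM there. Its leading genes were Fmod, the endothelial-type receptor gene Flt1, the phosphatase gene Ptprb, the BMP family gene Bmp3, Rapgef5 and Nkain2. Only 0.645% of its cells were predicted doublets. Nog was at 59.5 and 65.9 CPM, against 6.81 and 4.60 CPM in the remaining members, and Ptch1 at 115 and 111 CPM, against 21.9 and 27.3 CPM. Hhip was at 261 CPM in its pubertal and 241 CPM in its adult cells, a ratio of 0.924 (0.803 to 1.06). In subcluster 3 Hhip was at 158 and 75.7 CPM, a ratio of 0.478 (0.436 to 0.523). In subclusters 1, 2, 4 and 5 the ratio lay between 0.397 and 0.599. The lower adult level of Hhip was thus seen in each of these and not in subcluster 6, whose share of members was 12.2% at puberty and 7.12% in the adult. C7 was higher in the adult in both, with ratios of 2.36 (2.20 to 2.53) in subcluster 3 and 3.63 (2.92 to 4.51) in subcluster 6.

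Subcluster 4, with 624 pubertal and 535 adult cells, differed most from these among the large ones. Its leading genes were the interferon-induced Rsad2, Ifit1 and Cxcl10, the cytochrome gene Cyp2f2, the B cell chemokine gene Cxcl13 and Vtn. Ifit1 was at 1195 CPM in its pubertal and 788 CPM in its adult cells, against 200 and 127 CPM in the rest of the members. Apoe was at 3154 and 2443 CPM, and Csmd1 at 872 and 945 CPM. By contrast Fmo2 was at 225 CPM in the pubertal and 226 CPM in the adult cells, Hhip at 20.7 and 8.23 CPM and Mgp at 425 and 439 CPM. Prlr was at 238 and 92.9 CPM, and Il6 at 619 and 359 CPM. Predicted doublets were 3.19% of its cells. Fmo2, Hhip and Mgp were thus lower in its cells than in those of subcluster 6 in both libraries. Csmd1 was at 743 CPM in the adult cells of subcluster 6, against 945 CPM here.

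The remaining subclusters shared genes with other stromal classes. Subcluster 2, with 148 pubertal and 277 adult cells, was led by Thbs4 (281 and 307 CPM), Cilp, Col8a1, Grm8, Bmp5 and Meox1, several of them markers of lobular-like fibroblasts, and had C7 at 183 and 222 CPM with 23.5% predicted doublets. It did not stay separate, and its cells made up 15.9% of the cluster that held most of them at a resolution of 0.2 and 13.3% of that cluster without predicted doublets. Subcluster 1, with 302 pubertal and 180 adult cells, was led by progenitor genes such as Akr1c18 and Limch1, with Pi16 at 744 and 947 CPM. Its median depth was 20208 UMIs and 75.5% of its cells were predicted doublets. Subcluster 5, with 38 pubertal and 246 adult cells, was led by St6galnac3, Pla2g7, Map2 and Hc, and had a median of 17171 UMIs and 51.8% predicted doublets. Subcluster 8, with 13 and 5 cells, held smooth muscle genes such as Acta2, at 1911 and 1643 CPM, and all 18 of its cells were predicted doublets. Without subclusters 1, 5 and 8 members were 11.1% of Pdgfra+ cells at puberty and 9.71% in the adult. The part of doublets in these subclusters was not tested beyond these values.

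Subcluster 7 was small, with 23 pubertal and 34 adult cells, and did not carry the markers that name the class. Gdf10 was at 0 UMIs in its pubertal cells and at 16.1 CPM in the adult ones, Fmo2 at 19.7 and 35.3 CPM, and Hhip at 0 UMIs in both. Of the other rule genes, Vit was at 768 and 652 CPM there and Csmd1 at 935 and 822 CPM. They were led by Spp1, Grin2b, Reln and Tenm2, with Tenm2 at 576 and 870 CPM, and Ptch1 was at 162 and 189 CPM. These 57 cells, 1.18% of members, go against the label and are described here by their leading genes only.

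**Figure D5:**
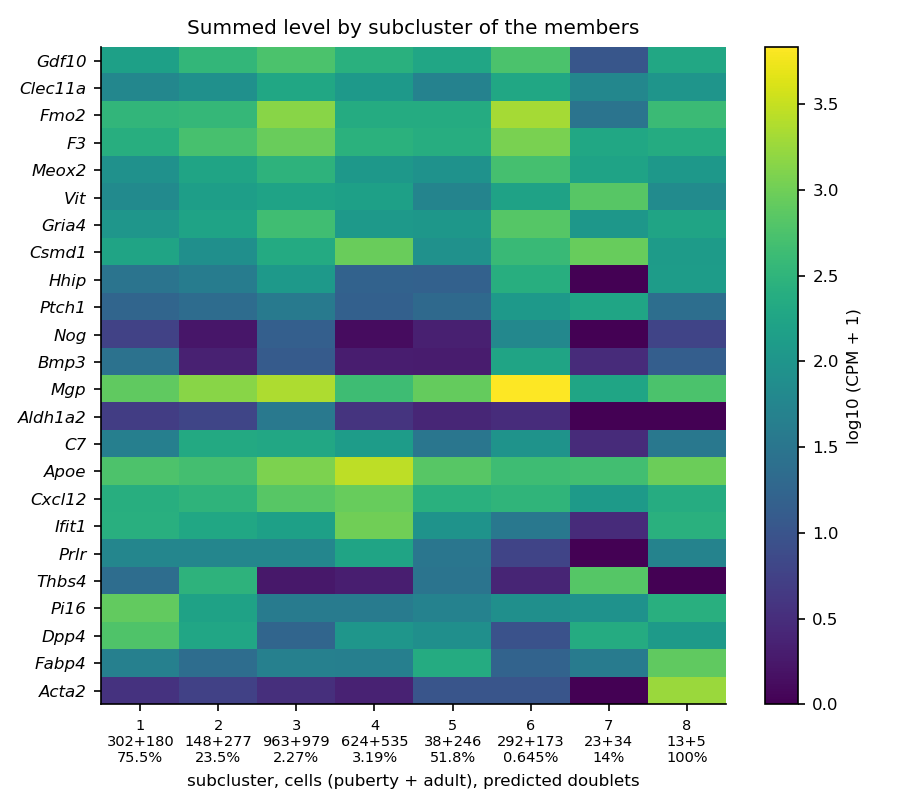
Colour gives log10 of (CPM + 1) of each gene (rows), summed over the cells of both libraries, in the 8 subclusters of members (columns), with the number of pubertal and adult cells and the share of predicted doublets under each. Fmo2, Hhip, Nog and Mgp are highest in subcluster 6, Apoe, Csmd1 and Ifit1 in subcluster 4, and Gdf10, Fmo2 and Hhip are lowest in subcluster 7.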

How the data were processed

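The deposited tables held raw counts of UMIs per gene and barcode, which the authors made with Cell Ranger (version 8.0.1, genome mm10 per the labels) from stroma of 2 females per library. The study's methods name another version, kit and pubertal age, and the labels were followed here. Both libraries carry replicate number 2. Cells were summed per library into members and others, scaled to CPM, and compared by ratios without a pseudocount. Intervals were exact (Clopper-Pearson for shares, Poisson for levels, conditional binomial for ratios). UMI depth limits them, and they cover counting error only.

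Genes called had at least 50 CPM (10 CPM for lists) and a ratio of 2. Doublets were predicted with Scrublet in scanpy 1.11.5 (Python 3.11.15, 0.4% per 1000 barcodes), marking the cells with the highest scores up to that rate, and kept. Members were clustered with the Leiden method (resolution 0.4, 20 components, 1000 genes). Thinning drew 3000 UMIs per cell and left out shallower cells. The rule was then applied again to the thinned counts, which left 944 pubertal and 1054 adult members. Members that no longer met it but kept a Pdgfra UMI were counted with others. TMM factors came from edgeR 4.0.16. The ratio step was tested on simulated counts.

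Named genes were the markers of the class, up to 6 of each list, the 15 highest and 10 lowest ratios of members to others, the 10 highest and 10 lowest between stages, the 5 highest and 5 lowest differences between these stage ratios, and leading genes of subclusters. Members and lists were chosen with earlier results of these data known. Nog and Bmpr1b, Fmod, Aldh1a2 and Gria1, which fell under a minimum in some cells, were named for their role. Cell cycle genes reached no minimum, and at least 3 of them were found in 4 pubertal and 9 adult members. Skeletal muscle markers summed to 2.63 and 3.92 CPM in members.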

Additional observations from a re-analysis of the deposited data

Results flagged for a closer look

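Pdgfra-negative cells were outside every comparison. Of 2656 such cells at puberty 114 had at least 4 of the 8 rule genes, 4.29% (3.55 to 5.13), and of 1973 in the adult 98 did, 4.97% (4.05 to 6.02). These shares were set beside 3 cells of 699 and 3 of 380 mural cells that met the same limit. The pubertal ones had a median depth of 7975 UMIs, below the 11557 of members.

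For 4 genes at least 2-fold apart between the stages in members, the ratio of adult to puberty lay on the other side of 1 in other Pdgfra+ cells, for Ntrk3 only slightly. C7 was 2.08 times its pubertal level in adult members and 0.716 times in others. For Hhip the ratios were 0.445 in members and 1.499 in others. Mfap4 stood at 0.283 in members and 1.36 in others. Ntrk3 stood at 0.351 in members and was nearly level in others, at 1.10. That is a log2 of 0.13, against a median of 0.07 over all genes tested in others. With 1 library per stage the difference between members and others was not tested, and the makeup of others differed between the libraries.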

How the results depend on the processing

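With 1 library per stage no value could be set against the spread between animals, and depth limited Nog, Aldh1a2 and other rare genes. No paired analysis was possible because each group has 1 sample. The share of members moved with the rule, from 12.7% and 11.6% (puberty and adult) to 17.1% and 17.7% with at least 3 of 8 rule genes, 15.3% and 15.7% with at least 3 of 6, 9.94% and 8.66% with at least 5 of 8, 7.77% and 6.42% thinned to 3000 UMIs, and 11.7% and 11.0% without the Pdgfra requirement. Without predicted doublets the adult share was 10.6%. Without the subclusters that were more than 50% predicted doublets, an alternative chosen after seeing the data, the shares were 11.1% and 9.71%. The ratio of the shares turned from 0.909 to 1.04 with at least 3 of 8 and to 1.03 with at least 3 of 6 genes, and was 0.826 thinned and 0.858 without predicted doublets. At 10 CPM, 233 genes were higher and 202 lower in members, and 127 higher and 128 lower in adult members. Genes lower in members numbered 145 without predicted doublets, 170 thinned and 160 without the doublet-rich subclusters. The thinned and doublet-free sums hold fewer and, after thinning, differently chosen cells. Why these numbers were larger was not tested. Of 902 other recomputed values (log2 ratios of named genes, list medians and numbers of subclusters), 683 stayed close (within 0.2 on the log2 scale) and 219 moved. None with a log2 of at least 1 in size changed sign.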

Other observations

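Of 19 chemokine and cytokine genes tested between the stages, 4 were at least 2-fold lower (Ccl2, Ccl7, Cxcl1 and Cxcl2) and 3 at least 2-fold higher (Cxcl13, Cxcl14 and Il15). Cxcl1, which recruits neutrophils, was at 2103 CPM in members at puberty and 987 CPM in the adult, and Ccl7, which recruits monocytes, at 419 and 167 CPM. In other Pdgfra+ cells the ratios were 0.467 and 0.342, so these genes were lower in the adult library on both sides. Stress and immediate early genes, which cell dissociation is known to induce, had 2 of 15 higher in adult members, the heat shock genes Hspa1a (86.6 and 209 CPM) and Hspa1b (116 and 372 CPM), with a median log2 ratio of 0.01. Their part in the stage differences was not tested.

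Markers of other mammary fibroblast classes were found on both sides. Of 15 markers of fibroblasts high in Mmp3 and Fabp4, 1 was higher in members of both libraries (Mgp) and 1 lower (Postn), and Mmp3, a matrix-degrading protease, was at 859 against 193 CPM at puberty and 956 against 592 CPM in the adult. Of 13 tested markers of lobular-like fibroblasts 2 were higher (Tgfbi and Ltbp4) and 2 lower (Myoc and Fndc1). Cp, the copper-carrying ferroxidase ceruloplasmin, and Steap4, a metalloreductase, both from the study's description of the class, were 4.27-fold and 6.21-fold higher in members at puberty and 3.39-fold and 3.85-fold in the adult.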
